A study of Mus musculus with 16 samples.

Results

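The mouse mitochondrial genome is a circle of 16299 bases that carries 37 genes, 13 for mRNAs, 22 for tRNAs and 2 for rRNAs. All 37 were found in the count table, as the rows whose symbol begins with mt-, among 55492 genes. RNA came from left ventricles of male C57BL/6 mice aged 8 to 12 weeks, and each of the 16 libraries came from its own mouse. PKM2-/- mice lack exon 10 of Pkm, the exon specific to the PKM2 isoform of pyruvate kinase. The deletion was made with a Cre driven by the CMV promoter, passed through the germline and kept after the Cre was bred out, so every tissue of these mice lacks PKM2. Control PKM2fl/fl mice carried the floxed allele without the deletion. There were 2 hearts per genotype at baseline with no surgery. A further 3 per genotype had sham surgery, and 3 per genotype were taken 3 days after permanent ligation of the left anterior descending artery to cause myocardial infarction (MI). PKM2 was therefore missing from every cell type of the PKM2-/- ventricle. In these whole-tissue samples, fewer cells of a type and less RNA per cell cannot be told apart.

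Mitochondrial DNA is copied into RNA from both strands as long transcripts that cover many genes. Most mRNAs and both rRNAs are flanked by tRNAs, which are cut out by dedicated nucleases and so release the RNAs between them. The mRNAs encode core subunits of the respiratory chain. The mt-Nd genes encode subunits of complex I, mt-Cytb one of complex III, mt-Co1, mt-Co2 and mt-Co3 those of complex IV, and mt-Atp6 and mt-Atp8 those of the ATP synthase. mt-Rnr1 and mt-Rnr2 are the rRNAs of the mitochondrial ribosome, and the tRNAs serve translation inside the organelle. Heart muscle is dense with mitochondria, and its RNA is correspondingly rich in these transcripts. The kit used before sequencing removes rRNA, that of mitochondria included, so values for mt-Rnr1 and mt-Rnr2 describe what was left after depletion. Mature tRNAs and longer precursors that still hold them could not be told apart.

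The tRNA genes were 59 to 75 bases long. The 6 below are shown because they mark extremes of the data or, for mt-Tr and mt-Tg, stand in contrast to them. The capitals mark the anticodon (DNA letters of the RefSeq-matched GENCODE M39 transcripts, strand of the tRNA). mt-Ts1, a serine tRNA at chrM:6870-6938 on the minus strand, was the only mitochondrial gene that limma called between genotypes at baseline. mt-Td (aspartate, chrM:6942-7011) and mt-Tk (lysine, chrM:7700-7764) had almost no reads. mt-Tr (arginine, chrM:9808-9875) and mt-Tg (glycine, chrM:9391-9458) lie in the same stretch of the genome but had at least 85 and 144 reads per library. mt-Te (glutamate, chrM:14071-14139, minus strand) had the highest level of all tRNAs per length.
mt-Ts1: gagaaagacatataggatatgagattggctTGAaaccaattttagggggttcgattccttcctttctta
mt-Td: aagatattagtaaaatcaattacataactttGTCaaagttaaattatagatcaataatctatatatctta
mt-Tk: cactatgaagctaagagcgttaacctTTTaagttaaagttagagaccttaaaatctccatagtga
mt-Tr: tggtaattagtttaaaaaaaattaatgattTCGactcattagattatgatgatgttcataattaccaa
mt-Tg: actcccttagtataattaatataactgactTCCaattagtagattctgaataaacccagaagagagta
mt-Te: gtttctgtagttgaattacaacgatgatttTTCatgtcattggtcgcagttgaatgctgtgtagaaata

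Part of the mitochondrial genome also exists as a copy in the nucleus, and among the mRNAs the level of a gene went with its place relative to that copy. Positions 6390 to 11042 of the mitochondrial genome matched chr1:24650616-24655269 of GRCm39 on the minus strand with 99.936% identity. The copies differed by 2 mismatches, at 6393 in mt-Co1 and at 9461 in mt-Nd3, and by 1 base missing from the mitochondrial sequence at 9828 in mt-Tr. In all, 11 genes lay wholly inside this match, namely the mRNAs mt-Co2, mt-Atp8, mt-Atp6, mt-Co3, mt-Nd3 and mt-Nd4l and the tRNAs mt-Ts1, mt-Td, mt-Tk, mt-Tg and mt-Tr. mt-Co1 and mt-Nd4 lay partly inside it and the other 24 genes outside. Every stretch of 75 bases had an exact nuclear copy in 9 genes, mt-Ts1, mt-Td, mt-Co2, mt-Tk, mt-Atp8, mt-Atp6, mt-Co3, mt-Nd4l and, through a different copy, mt-Ty. In mt-Nd3, 84.2% of such stretches had one, in mt-Tg 48.5% and in mt-Tr 14.7%. Among genes partly inside or outside the match, the value was 82.1% in mt-Th, 78.9% in mt-Tn, 60.9% in mt-Nd4, 41.4% in mt-Co1 and 27.5% in mt-Te. Other such genes, mt-Ty apart, had less or none. How reads that fit 2 places were counted is not given in the sources used here. The levels of genes with exact copies, inside the match or not, are therefore uncertain.

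Per length, the mRNAs inside the match were read far less than the others. The median over 16 libraries ran from 5177 normalized counts per kilobase in mt-Nd3 to 18462 in mt-Atp8 among the 6 mRNAs inside. It ran from 276339 in mt-Nd5 to 511721 in mt-Cytb among the 5 mRNAs outside. The median of the outside genes was 46.9-fold that of the inside genes. The 6 genes hold 26.3% of the mRNA length but took 0.164% to 2.34% of mitochondrial mRNA reads per library. mt-Co1, partly inside, had the highest mRNA level per length, with a median of 810275. The tRNAs did not separate in this way. Their medians ran from 54.6 to 12716 normalized counts per kilobase inside the match and from 5142 to 410104 outside it.

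Replicates of the same group also spread more for the mRNAs inside the match. The within-group SD on the log2 scale was 0.61 to 2.07 for the 6 inside mRNAs and 0.33 to 0.42 for the 5 outside. For tRNAs the ranges overlapped, at 0.38 to 1.39 for the 5 inside and 0.25 to 0.63 for the 17 outside. mt-Tr (0.38) and mt-Tg (0.43), both inside, lay within the outside range. mt-Co2 had the widest spread, with 30550, 1343 and 411 normalized counts in the 3 PKM2fl/fl MI hearts. These came from a gene with 192 to 83324 reads per library. Among tRNAs, mt-Td had 1 to 94 reads and mt-Tk 0 to 11 reads per library, while mt-Tr and mt-Tg, where fewer stretches are copied exactly, had at least 85 and 144 reads. Low reads did not go with exact copying throughout. mt-Ts1 and mt-Ty, copied exactly in every stretch, had 22 to 7092 and 1060 to 29807 reads. mt-Tk passed the filter of a mean of 10 normalized counts in no comparison, and mt-Td failed it between the genotypes after MI and where PKM2-/- sham hearts were compared with MI or baseline hearts. So 35 or 36 of the 37 genes were tested in each comparison.

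**Figure D1:**
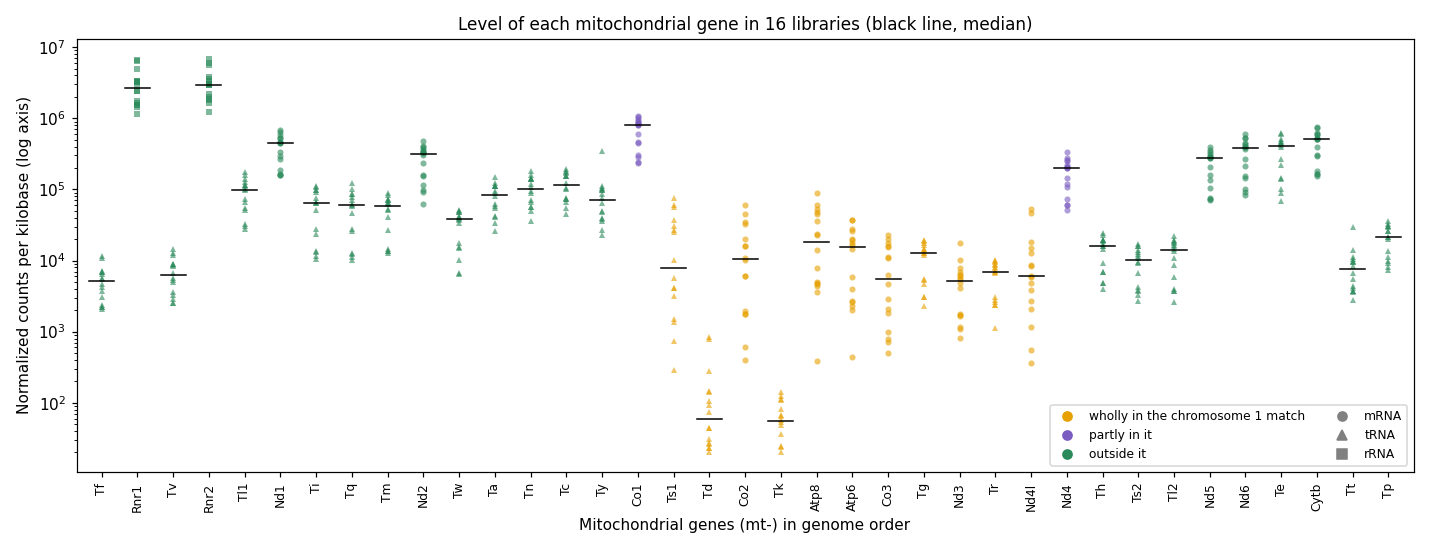
Normalized counts per kilobase (log axis) of the 37 mitochondrial genes in genome order, 1 point per library, with the median over 16 libraries as a black line and 2 values of 0 (mt-Tk) not drawn. The medians of the 6 mRNAs wholly inside the chromosome 1 match sit below those of the mRNAs partly inside or outside it, and mt-Td and mt-Tk sit lowest of all.

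Nuclear genes annotated over such copies had reads too. Gm28661, identical to mt-Co2 over 681 bases, had 252 to 3951 reads per library beside 192 to 83324 for mt-Co2. Gm28437, identical to mt-Co3 over 783 bases, had 306 to 4869 reads, and Gm28439, identical to mt-Nd4 over 876 bases, had a mean of 1077 normalized counts. In all, 13 nuclear genes with at least 90% identity over 200 bases and a mean of at least 10 held 1335 to 22128 reads per library.

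Together, the 37 genes took 17.2% to 45.5% of all reads on genes, which numbered 20623769 to 71855101 per library. Reads on the nuclear loci that share sequence with cytoplasmic rRNA, a measure of rRNA left over, varied from 0.219% to 33.0% of the library, and this enters the denominator of every share. The 95% Wilson intervals of the shares were at most 0.0369 percentage points wide and cover counting error only.

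The share of reads on the 13 mRNAs fell after MI in both genotypes. At baseline it was 12.7% and 14.1% in PKM2fl/fl hearts and 10.5% and 9.27% in PKM2-/- hearts. After sham surgery it was 11.7%, 12.7% and 12.1% in PKM2fl/fl and 8.10%, 10.01% and 8.84% in PKM2-/- hearts. After MI it was 4.42%, 8.23% and 2.67% in PKM2fl/fl and 5.76%, 3.57% and 3.37% in PKM2-/- hearts. All 6 MI hearts were below all sham hearts of their genotype. MI hearts thus differed from sham hearts by −5.90 percentage points (two-sided exact permutation within genotype, p = 0.005, the smallest it can give, and 0.015 adjusted over the 6 tests of shares).

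The mRNA share was also lower in PKM2-/- hearts, at 7.43% against 9.82%, a difference of −2.39 points (two-sided exact permutation within treatment, p = 0.0133, adjusted p = 0.02). Both or all PKM2-/- hearts were below all PKM2fl/fl hearts at baseline and after sham surgery, but the genotypes overlapped after MI. The difference depended on the scale and the denominator. On the log2 scale it was −0.34 (exact permutation test, p = 0.11). Over reads outside rRNA-related loci and mitochondrial rRNA, it was −1.12 points (exact permutation test, p = 0.284), and at baseline the PKM2-/- mean was then the higher, 17.6% ± 2.46 against 16.7% ± 1.97 (SD, n = 2 each). The share of rRNA-related loci was 10.8% and 10.5% in the PKM2-/- baseline hearts and 0.435% and 0.755% in the PKM2fl/fl ones.

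The 22 tRNAs took 0.0733% to 0.394% of reads and fell in the same way after MI. Their share was 0.329% ± 0.0309 after sham surgery and 0.116% ± 0.0507 after MI in PKM2fl/fl hearts (SD, n = 3 each), and 0.215% ± 0.0282 and 0.103% ± 0.0429 in PKM2-/- hearts (SD, n = 3 each). MI and sham hearts differed by −0.162 points (two-sided exact permutation, p = 0.005, adjusted p = 0.015), with all MI hearts below all sham hearts of their genotype. Between genotypes (PKM2-/- minus PKM2fl/fl) the difference was −0.0842 points (two-sided exact permutation, p = 0.0075, adjusted p = 0.015). Unlike the mRNA difference, this stayed past the threshold over reads outside rRNA, at −0.0606 points (exact permutation test, p = 0.0167). The group means of the tRNA share outside rRNA had the same direction within baseline, sham and MI hearts. They were 0.483% and 0.428%, 0.424% and 0.344%, and 0.188% and 0.143% in PKM2fl/fl and PKM2-/- hearts. The genotypes overlapped at baseline and after MI, but not after sham surgery. At baseline the hearts had 0.477% and 0.490% in PKM2fl/fl and 0.492% and 0.364% in PKM2-/- mice, so only 1 PKM2-/- heart lay below the PKM2fl/fl ones. The baseline difference in means also includes an outlying tRNA. mt-Ty made up 20.2% of the tRNA reads in the first PKM2fl/fl heart and 5.62% in the second. The share without mt-Ty was not tested. No such comparison within 1 treatment can pass the threshold, since 3 hearts against 3 cannot go below 0.1 and 2 against 2 not below 0.333.

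The share of the 2 rRNAs was higher in the PKM2-/- hearts at baseline and lower in them after MI. It was 17.0% and 21.6% in PKM2fl/fl and 34.7% and 30.9% in PKM2-/- hearts at baseline. After sham surgery it was 22.1%, 15.7% and 26.2% in PKM2fl/fl and 22.1%, 24.4% and 29.5% in PKM2-/- hearts. After MI it was 17.1%, 17.9% and 20.1% in PKM2fl/fl but 13.3%, 13.5% and 14.2% in PKM2-/- hearts, with no overlap. Over all treatments the genotypes did not differ past the threshold (3.12 points, p = 0.247 by two-sided exact permutation). The difference of MI from sham hearts was −7.32 points (two-sided exact permutation, p = 0.025, adjusted p = 0.03), mostly through the PKM2-/- hearts, where the mean went from 25.3% to 13.6%. Over reads outside rRNA the MI difference did not pass (−8.76 points, exact permutation test, p = 0.225) and had opposite signs in the 2 genotypes.

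**Figure D2:**
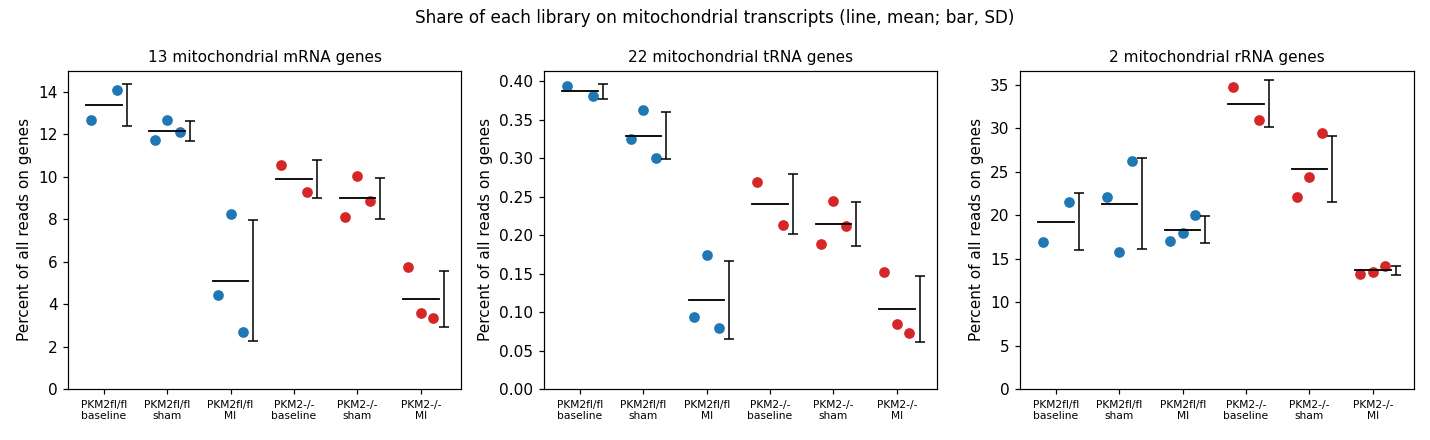
Percent of all reads on genes that fell on mitochondrial mRNA, tRNA and rRNA genes, 1 point per heart, with the group mean as a line and the SD as a bar. mRNA and tRNA shares of the MI hearts sit below those of the sham hearts in both genotypes, while rRNA shares are highest in PKM2-/- baseline hearts, at 30.9% and 34.7%.

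Gene by gene, MI against sham surgery asked which mitochondrial transcripts changed 3 days after the infarct. limma was run on log2(normalized count + 1), and a gene was called at a Benjamini-Hochberg adjusted p under 0.05 over all genes and at least a 2-fold change. In PKM2fl/fl hearts 23 of 36 tested mitochondrial genes fell, 7 of 13 mRNAs, 16 of 21 tRNAs and neither rRNA. The same comparison in PKM2-/- hearts gave 31 of 35, 11 of 13 mRNAs, 20 of 20 tRNAs and again neither rRNA. No mitochondrial gene rose in either. Every MI heart was below every sham heart for 29 genes in PKM2fl/fl and 32 in PKM2-/- hearts, beside 28.8% and 30.3% of all genes tested. Among all genes tested, 23.3% were called in PKM2fl/fl and 28.5% in PKM2-/- hearts in either direction, 10.6% fell in PKM2fl/fl and 13.8% in PKM2-/- hearts, and the median of all genes was 0.01 and 0.03 on the log2 scale, against −1.64 and −1.66 over the mitochondrial genes. Of the 23 genes that fell in PKM2fl/fl hearts 95.7% also fell in PKM2-/- hearts, and of the 31 in PKM2-/- hearts 71.0% also fell in PKM2fl/fl hearts. mt-Nd4l was called in PKM2fl/fl hearts, and mt-Nd1, mt-Co1, mt-Nd4, mt-Nd5, mt-Cytb, mt-Tf, mt-Tv, mt-Tn and mt-Tc in PKM2-/- hearts, without a call in the other genotype. The difference in the MI effect between genotypes was itself tested, and 0 of 36 genes passed in limma's interaction test (0% of all genes called, 3 at an unadjusted p under 0.05, which 8.28% of all genes reached, and 0 with edgeR and with DESeq2).

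Of the complex I and III mRNAs outside the nuclear match, 2 of 5 fell in PKM2fl/fl hearts, mt-Nd2 and mt-Nd6, and 5 of 5 in PKM2-/- hearts. mt-Cytb had 583974, 606439 and 683548 normalized counts in PKM2fl/fl sham hearts and 340475, 353924 and 186699 after MI. It went from 451551, 592930 and 827740 to 204687, 185588 and 177665 in PKM2-/- hearts. Every MI heart was below every sham heart of its genotype. Its log2 fold change was −1.14 in PKM2fl/fl (standard error 0.70, adjusted p = 0.213 from limma) and −1.68 in PKM2-/- hearts (standard error 0.44, adjusted p = 0.00876 from limma). These standard errors are moderated over genes of like level, while the within-group SD of mt-Cytb itself was 0.33 over all groups (log2 scale). mt-Nd6, the only mRNA on the minus strand, had log2 fold changes of −1.61 (standard error 0.46, adjusted p = 0.0215 from limma) and −1.70 (standard error 0.29, adjusted p = 0.000724 from limma). mt-Nd2 had −1.545 and −1.66, with adjusted p = 0.0464 and 0.00218 from limma. The other mRNAs outside the match, mt-Nd1 and mt-Nd5, had values of −1.09 and −1.35 in PKM2fl/fl hearts, neither called, and of −1.43 and −1.63 in PKM2-/- hearts, both called. The calls for these genes in PKM2fl/fl hearts were fragile, since that of mt-Nd2 was lost on leaving out any 1 library other than the third MI heart, with adjusted p up to 0.109, and that of mt-Nd6 on leaving out sham heart 1 or 3 or MI heart 1 (up to 0.0664). Those of mt-Cytb and mt-Nd1 in PKM2-/- hearts were lost without MI heart 2 or 3, with adjusted p up to 0.0562 and 0.0687, and that of mt-Co1 (−1.67) without sham heart 1 or 3 or MI heart 2 or 3, with adjusted p up to 0.192.

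The mRNAs inside the nuclear match had low and scattered counts, and their fold changes varied. mt-Atp6, a proton channel subunit of the ATP synthase, had 25579, 11919 and 24895 normalized counts in PKM2fl/fl sham hearts and 1758, 1585 and 1375 after MI. It had 9805, 3982 and 13493 in PKM2-/- sham hearts and 2725, 1816 and 299 after MI. The groups did not overlap in either genotype, and the log2 fold changes were −3.65 (standard error 0.28, adjusted p = 0.000139 from limma) and −2.82 (standard error 0.72, adjusted p = 0.00769 from limma). mt-Co3 (−2.96 and −2.70) and mt-Nd3 (−2.04 and −2.59) also fell in both genotypes. mt-Co2 was not called, at −2.91 (standard error 1.40) and −1.503 (standard error 1.05). mt-Nd4l had −3.14 in PKM2fl/fl hearts, a call lost without sham heart 1 (adjusted p = 0.0534 from limma), and −1.17 in PKM2-/- hearts, where it was not called (standard error 0.77, adjusted p = 0.225 from limma). The median over the 6 inside mRNAs was −2.93 in PKM2fl/fl and −2.64 in PKM2-/- hearts, beside −1.35 and −1.66 over the 5 outside. In PKM2-/- hearts the values of mt-Co2 and mt-Nd4l were nearer to 0 than that outside median.

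**Figure D3:**
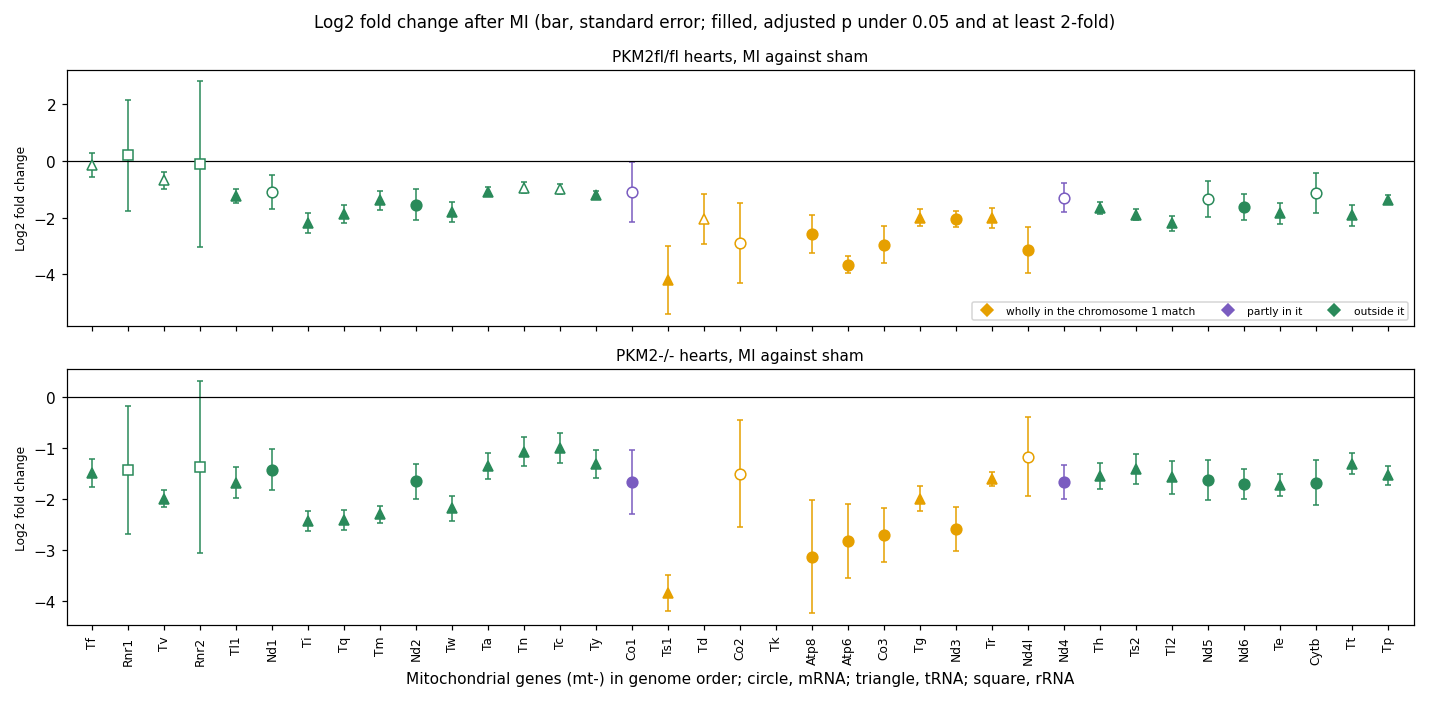
Log2 fold change from sham to MI hearts for each tested mitochondrial gene in genome order, with the standard error as a bar and filled symbols for adjusted p under 0.05 and at least 2-fold, PKM2fl/fl above and PKM2-/- below. The standard errors are moderated by limma over genes of like level. Nearly all genes sit below 0, except mt-Rnr1 at 0.18 in PKM2fl/fl hearts, and the genes inside the chromosome 1 match reach the lowest values.

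The tRNAs fell with the mRNAs. mt-Te had 31041, 31225 and 35360 normalized counts in PKM2fl/fl sham hearts and 10023, 15430 and 4686 after MI. In PKM2-/- hearts it had 18475, 27538 and 29057 after sham surgery and 9676, 6094 and 6948 after MI. Its log2 fold changes were −1.85 and −1.72 (standard errors 0.38 and 0.21, adjusted p = 0.00579 and 8.41e-05 from limma), and the groups did not overlap. The adjoining trio mt-Ti, mt-Tq and mt-Tm, for isoleucine, glutamine and methionine, fell in both genotypes, with −2.19, −1.88 and −1.40 in PKM2fl/fl hearts and −2.43, −2.42 and −2.30 in PKM2-/- hearts. The cluster of mt-Ta, mt-Tn, mt-Tc and mt-Ty on the minus strand, for alanine, asparagine, cysteine and tyrosine, had values of −1.09, −0.94, −0.99 and −1.20 in PKM2fl/fl hearts, where mt-Tn and mt-Tc missed the fold threshold. All 4 fell in PKM2-/- hearts, with −1.34, −1.08, −1.003 and −1.31. The trio mt-Th, mt-Ts2 and mt-Tl2, for histidine, serine and leucine, fell too, with −1.66, −1.89 and −2.20 in PKM2fl/fl and −1.55, −1.42 and −1.58 in PKM2-/- hearts. The call was lost for mt-Tm without the third and for mt-Ta without the second PKM2fl/fl MI heart (−0.97 and −0.93), for mt-Tn and mt-Ty without the third PKM2-/- sham heart (−0.73 and −0.98), for mt-Tn without the third PKM2-/- MI heart, and for mt-Tc without the third PKM2-/- sham heart (−0.62) or without MI heart 2 or 3. Differences between these clusters were not tested.

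mt-Tf and mt-Tv, the phenylalanine and valine tRNAs that flank mt-Rnr1, were close in size to the rRNAs in their baseline difference between genotypes. After MI the likeness was looser, most of all for mt-Tv. In PKM2fl/fl hearts the log2 fold changes of mt-Tf and mt-Tv after MI were −0.14 and −0.69, neither called, beside 0.18 for mt-Rnr1 and −0.12 for mt-Rnr2. Both tRNAs fell in PKM2-/- hearts, at −1.497 and −1.99, beside −1.44 and −1.37 for the rRNAs. The median over the 17 tRNAs outside the nuclear match, mt-Tf and mt-Tv included, was −1.55 in the same comparison. At baseline mt-Tf and mt-Tv were 1.40 and 1.22 higher on the log2 scale in PKM2-/- than in PKM2fl/fl hearts, beside 1.51 and 1.297 for the rRNAs, and limma called none of these 4 baseline differences. As the genes adjoin, fragments that span an rRNA and its tRNA may be counted for either, and the part of such fragments was not tested.

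Across the 35 genes tested in both genotypes, the MI effects, which share no libraries, correlated with a Pearson r of 0.63 and a Spearman rho of 0.49. The points are genes of 1 genome that share libraries and neighbouring reads, so no p is given. Pearson's r was 0.73 over the 20 tRNAs and 0.47 over the 13 mRNAs.

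The 2 rRNAs were the most abundant mitochondrial transcripts, even after depletion. mt-Rnr1 had 2344710, 1359650 and 3127150 normalized counts in PKM2fl/fl sham hearts and 3093970, 1492270 and 3169530 after MI, overlapping fully. It went from 2681360, 3223370 and 6345440 to 1112570, 1484030 and 1680110 in PKM2-/- hearts. mt-Rnr2 went from 4630790, 5639830 and 9504300 to 1944630, 2571430 and 2888510 in the same PKM2-/- hearts. All 3 PKM2-/- MI hearts were below all 3 sham hearts for both genes. limma called neither (standard errors 1.25 and 1.68, adjusted p = 0.359 and 0.52), and the within-group SD on the log2 scale was 0.53 and 0.42 over all groups. These standard errors are moderated toward the spread of genes of like level and do not measure the spread of these 2 genes alone. With edgeR on the recovered reads both were called lower, at −1.55 and −1.45 (adjusted p = 0.0237 and 0.0371 from edgeR), and so they were with DESeq2 (adjusted p = 0.00187 and 4.04e-04 from DESeq2). Neither was called in PKM2fl/fl hearts by any of the 3 tools.

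**Figure D4:**
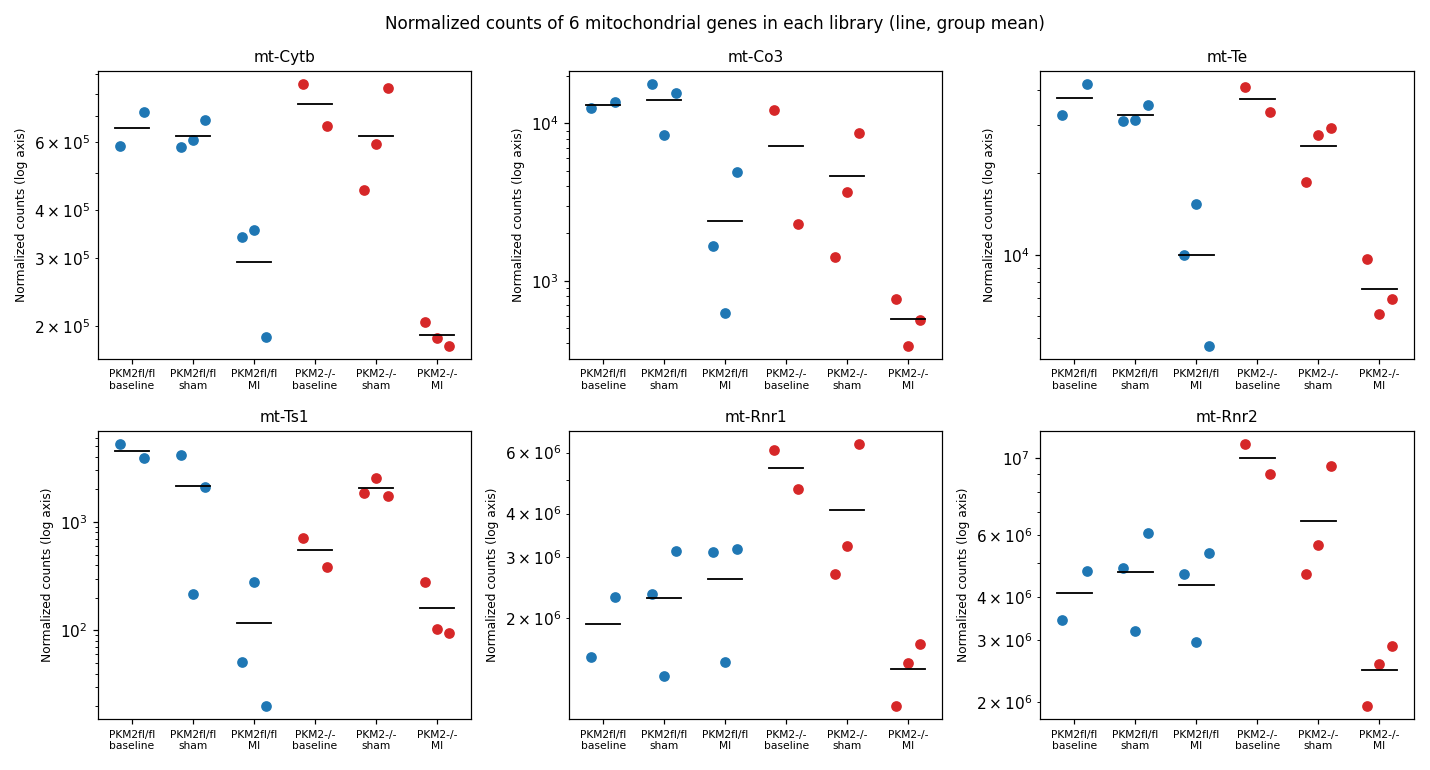
Normalized counts (log axis) of 6 mitochondrial genes in each heart, with the group mean as a line. The means of mt-Cytb, mt-Te and mt-Co3 are lowest in the PKM2-/- MI group, mt-Ts1 falls to between 20 and 281 in MI hearts, and the means of mt-Rnr1 and mt-Rnr2 are also lowest in PKM2-/- MI hearts.

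Markers of some cell types also changed after MI in these hearts. Of 10 cardiomyocyte marker genes, 8 fell in PKM2fl/fl and 9 in PKM2-/- hearts after MI, with medians of −1.78 and −2.02 on the log2 scale. Their summed reads went from 5.53% to 6.01% of reads outside rRNA in PKM2fl/fl sham hearts to 1.34% to 3.06% after MI, and from 4.82% to 5.77% to 1.38% to 1.91% in PKM2-/- hearts. No cardiomyocyte marker was at 0. Leukocyte markers rose in 8 of 10 and 10 of 10 genes, and fibroblast markers in 7 of 10 and 8 of 10. Among all genes 23.3% and 28.5% were called in either direction. Of the endothelial and erythroid markers, 0 of 8 and 0 of 6 were called in either genotype. Mitochondrial mRNA reads per cardiomyocyte marker read were 2.63 to 2.81 in PKM2fl/fl sham hearts and 3.29 to 3.92 after MI. In PKM2-/- hearts they were 2.28 to 3.58 and 3.60 to 3.94. Per marker read, mitochondrial mRNA was thus not lower in any MI heart than in the sham hearts of its genotype. The part of cell makeup in the fall of mitochondrial transcripts was not tested.

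Nuclear genes for the same machinery were read in the same libraries. Of 24 nuclear subunits of the respiratory chain and ATP synthase, 22 fell in PKM2fl/fl and 23 in PKM2-/- hearts, with medians of −1.56 and −1.65, close in size to the mitochondrial mRNAs (−1.61 and −1.67). Uqcrfs1, the Rieske subunit of complex III, fell by 1.65 in PKM2fl/fl hearts (log2 scale, standard error 0.18, adjusted p = 0.000388 from limma). Cox7a1, the muscle form of a complex IV subunit, fell by 2.14 in PKM2-/- hearts (standard error 0.14, adjusted p = 2.08e-06 from limma). Genes of the PGC-1 axis, which drives the making of mitochondria, fell in 5 of 8 cases in both genotypes. Esrrg, an orphan receptor that works with PGC-1, fell in both (−1.53 and −2.35). Pprc1, a relative of PGC-1, rose by 1.02 in PKM2fl/fl hearts.

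Factors that act on mitochondrial RNA were read as well, and their counts stand beside the 10.6% and 13.8% of all genes that fell in PKM2fl/fl and PKM2-/- hearts. Of 15 genes for transcription and copying of the mitochondrial genome, 1 fell in PKM2fl/fl hearts, Tefm, an elongation factor (−1.01). In PKM2-/- hearts 3 fell, among them Polrmt, the mitochondrial RNA polymerase, (−1.03) and Tfb2m, a factor for starting transcription (−1.14). Tfam, which packages mitochondrial DNA, had −0.77 in PKM2fl/fl hearts and was not called. Of 21 genes for RNA processing and decay, 4 and 7 fell. Both genotypes showed falls in Lrpprc, which stabilizes mitochondrial mRNAs (−1.03 and −1.34), and in Hsd17b10, a subunit of the nuclease that cuts the start of mitochondrial tRNAs (−1.61 and −1.28). Of 17 genes for RNA modification, 1 and 5 fell, among them Mrm2, an rRNA methyltransferase (−1.01 in PKM2fl/fl hearts), and Trmt5, a tRNA methyltransferase (−1.48 in PKM2-/- hearts).

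PKM2 loss was compared at baseline, after sham surgery and after MI. At baseline, 1 of 36 mitochondrial genes was called, mt-Ts1, beside 0.228% of all genes. mt-Ts1 had 5219 and 3862 normalized counts in PKM2fl/fl and 706 and 387 in PKM2-/- baseline hearts. The groups did not overlap, and limma put it at −3.10 on the log2 scale with a standard error of 0.26 (adjusted p = 0.00301, and 1.68e-15 to 1 over the alternatives). The call held on leaving out each library, but not in a fit of all 16 libraries that shared 1 estimate of the spread. mt-Ts1 varied widely in other groups. It had 4167, 219 and 2117 in PKM2fl/fl sham hearts and 1860, 2527 and 1747 in PKM2-/- sham hearts, where it did not differ by genotype (log2 fold change 0.69, standard error 0.87, adjusted p = 0.826 from limma). After MI it had 51, 281 and 20.1 in PKM2fl/fl and 281, 104 and 95.2 in PKM2-/- hearts. Its fall after MI was called in both genotypes, at −4.20 (standard error 1.19, adjusted p = 0.0214 from limma) and −3.83 (standard error 0.35, adjusted p = 1.2e-05 from limma), and the former call was lost without sham heart 1 or 3 or MI heart 1 or 3 (adjusted p 0.0511 to 0.0753). The tRNA lies inside the nuclear match, overlaps the end of mt-Co1 on the opposite strand by 3 of its 69 bases and has an exact nuclear copy over its whole length. Without strand, its reads and those of mt-Co1 cannot be told apart where they overlap.

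No mRNA differed between genotypes at baseline by the call. Over all classes 9 of 36 genes had an unadjusted p under 0.05, beside 4.98% of all genes, and both PKM2-/- hearts were higher in 8 genes and lower in 4, beside 17.9% and 16.9% of all genes. The mRNA values ranged from −1.32 in mt-Co3 to 0.34 in mt-Nd3 with a median of 0.12, and those of the 5 genes outside the nuclear match from −0.17 to 0.29. mt-Co3 had 12533 and 13733 normalized counts in PKM2fl/fl and 12089 and 2291 in PKM2-/- hearts, so the difference came from 1 heart, and without the first PKM2-/- heart it was −2.52. mt-Atp6, at −0.59, had a standard error of 0.11 (adjusted p = 0.208 from limma). When libraries were scaled to their total reads, all genes moved by −0.59 at the median and the mRNA median turned to −0.47, which is 0.12 above that shift, and 7 of 36 mitochondrial genes were called, all lower. The share of all genes called under that scaling is not given here, so these 7 calls are not read as particular to mitochondrial genes. Both rRNAs were higher in PKM2-/- baseline hearts. mt-Rnr1 had 1544700 and 2292020 against 6118020 and 4693280, and mt-Rnr2 3427830 and 4753400 against 10946500 and 8981740. limma called neither (adjusted p = 0.941 for both), and DESeq2 called both (adjusted p = 0.00495 and 1.9e-14 from DESeq2), while edgeR called neither. The rRNA-related nuclear loci, at 11 of 11 tested, were also called higher in these hearts, beside 0.228% of all genes called in either direction. The list of these loci was chosen with earlier results of these data known, so this count is not independent support. The part of rRNA depletion in the mitochondrial rRNA values was not tested.

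One PKM2fl/fl baseline heart stood apart in mt-Ty. It had 23396 normalized counts of this tyrosine tRNA where its partner had 6977 and the highest of the other 14 libraries 7591, so the top value was 3.08-fold the next. The baseline difference of −1.12 for mt-Ty (standard error 0.47, adjusted p = 0.941 from limma) therefore rested on that heart. All windows of mt-Ty have an exact copy in the nuclear genome.

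After sham surgery 0 of 36 mitochondrial genes were called between genotypes with limma, beside 0.0447% of all genes, and 4 had an unadjusted p under 0.05, beside 10.8% of all genes, while edgeR and DESeq2 also called 0. These were the mRNAs mt-Co2, mt-Atp6 and mt-Co3, at −2.35, −1.28 and −1.90, and mt-Tv at 0.62. The 3 mRNAs are inside the nuclear match. mt-Co2 had 23543, 7391 and 40847 normalized counts in PKM2fl/fl and 1196, 4141 and 10865 in PKM2-/- sham hearts, which overlap. With libraries scaled to total reads, which moved the median of all genes by −0.32, 6 genes were called, all lower. As the share of all genes called under that scaling is not given here, these 6 calls are not read as particular to mitochondrial genes. The 5 mRNAs outside the match had values between −0.26 and −0.04. mt-Te was the only mitochondrial gene with all 3 PKM2-/- sham hearts below all 3 PKM2fl/fl ones (−0.40), a pattern found in 8.27% of all genes.

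After MI 0 of 35 were called between genotypes with limma, beside 0.0291% of all genes. At an unadjusted p under 0.05, 10 were lower in PKM2-/- hearts and 0 higher, and 12.8% of all genes passed that level in either direction. edgeR called 0 and DESeq2 1. The 10 were mt-Co3, at −1.64, and 9 tRNAs. The median was −0.46 for mRNAs and −0.43 for tRNAs, but −0.09 over all mitochondrial genes when libraries were scaled to total reads, a scaling that moved the median of all genes by 0.36. mt-Cytb had 340475, 353924 and 186699 in PKM2fl/fl and 204687, 185588 and 177665 in PKM2-/- MI hearts, so that the third PKM2fl/fl heart lay among the PKM2-/- ones. In mt-Co1, mt-Rnr2, mt-Ta and mt-Tn all PKM2-/- hearts were below all PKM2fl/fl hearts, and no mitochondrial gene had all PKM2-/- hearts higher, whereas among all genes tested 8.04% were lower and 10.9% higher in every PKM2-/- heart.

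**Figure D5:**
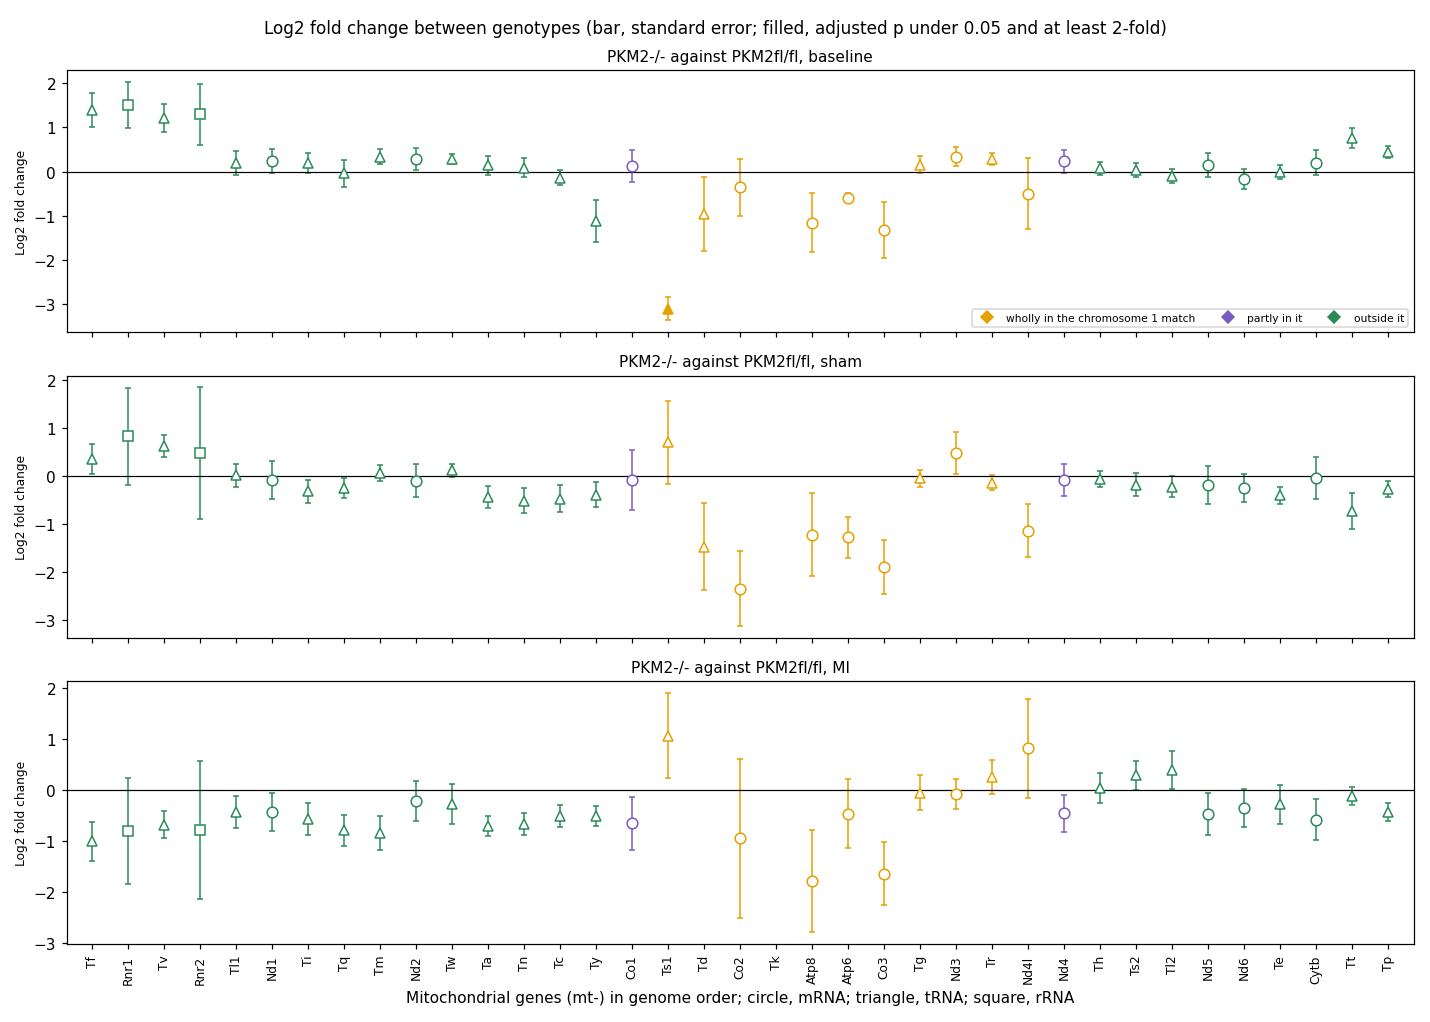
Log2 fold change from PKM2fl/fl to PKM2-/- hearts for each tested mitochondrial gene in genome order at baseline, after sham surgery and after MI, with the standard error as a bar and a filled symbol for the only call, mt-Ts1 at baseline. The standard errors are moderated by limma over genes of like level. At baseline mt-Tf, mt-Rnr1, mt-Tv and mt-Rnr2 sit highest (1.22 to 1.51), and after MI most genes sit below 0.

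No tested gene among 129 nuclear genes on the lists for mitochondrial transcription, RNA processing, RNA modification, the PGC-1 axis, the nuclear respiratory chain and cell types differed by genotype past the call at baseline, after sham surgery or after MI with limma. The counts at an unadjusted p under 0.05 among the 24 nuclear respiratory chain genes were 0 at baseline, 1 lower after sham surgery and 0 after MI. For cardiomyocyte markers 1, 1 and 2 of 10 were lower at that level, with medians of −0.06, −0.18 and −0.44.

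Sham surgery changed few mitochondrial genes. In PKM2fl/fl hearts 0 of 36 were called with limma (4 at an unadjusted p under 0.05, beside 13.7% of all genes, and 0 with edgeR and DESeq2), and 0.00496% of all genes were called. The PKM2-/- comparison called 1 of 35 beside 1.98% of all genes (4 at an unadjusted p under 0.05, beside 17.4%), namely mt-Ts1, which was 1.95 higher after sham surgery on the log2 scale (standard error 0.24, adjusted p = 0.00546 from limma). The call was lost in the fit of all 16 libraries (adjusted p = 0.342 from limma). This comparison shares its 2 baseline hearts with the genotype comparison at baseline. The genotype effect on mt-Ts1 differed by 3.80 between sham and baseline hearts, which did not pass (standard error 1.46, adjusted p = 0.676 from limma's interaction test). mt-Tt, the threonine tRNA, had 374 and 568 normalized counts in PKM2fl/fl baseline hearts and 743, 638 and 1961 after sham surgery, without overlap but with a wide spread (log2 fold change 1.08, standard error 0.44, adjusted p = 0.35 from limma). For the difference of the genotype effect between sham and baseline, 0 of 36 genes were called with limma, edgeR or DESeq2, beside 0% of all genes, and 3 had an unadjusted p under 0.05, beside 6.29% of all genes.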

How the data were processed

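RNA from left ventricles of 16 mice was depleted of rRNA and sequenced as read pairs. The authors used PRINSEQ for trimming, HISAT2 for alignment (mm10), featureCounts for gene counts and DESeq2 for scaling. Strand and multi-mapping settings are not given in the sources used here. The deposited signal, called normalized count here, is each gene's count over the DESeq2 size factor of its library. It also holds the authors' mean, their log2 fold change between baseline groups with its standard error, a deposited Wald score, and the authors' p-value with its adjusted form, none of which was used. In every library 100% of values were whole multiples of 1 step (tolerance 0.05), which gave the reads. Those 5 comparison columns belong to no sample.

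Groups came from the sample labels. limma 3.58.1 in R 4.3.3 (limma-trend) was fitted to log2(normalized count + 1) for genes with a mean of at least 10, with 2 groups per fit, or all 16 libraries for differences between genotype effects. A call needed a Benjamini-Hochberg adjusted p under 0.05 over all genes and a 2-fold change. Fold changes on this scale understate those of low genes. limma's standard errors are moderated toward a trend of spread with level over all genes. For the most abundant mitochondrial genes they can exceed the gene's own spread, so a missing call there does not show that the gene itself spread widely. Shares were compared by exact permutation within treatment or genotype. Alternatives were total reads, reads outside rRNA-related and mitochondrial genes, and TMM as scaling, edgeR 4.0.16, DESeq2 1.42.0, a pseudocount of 0.1, no filter, all 16 libraries in 1 fit, no fold threshold, the replicate number as a block and each library left out. The models were tested on simulated data.

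Gene positions come from GENCODE M39 on GRCm39, and all 37 had the same positions in RefSeq's GRCm38.p6. The mitochondrial genome was matched to the nuclear genome with BLAST 2.17.0. The members and lists were chosen with earlier results of these data known. All 37 members may be named, and from each other list at most 4 genes per comparison, those with the smallest p. Nuclear genes matching the mitochondrial genome were named at 90% identity over 200 bases and a mean of 10.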

Additional observations from a re-analysis of the deposited data

Results flagged for a closer look

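mt-Rnr2 separated the hearts of the 2 genotypes in opposite directions at 2 treatments, though limma called neither difference. Among all genes tested, 17.9% were higher in every PKM2-/- heart at baseline and 8.04% lower in every one after MI. At baseline both PKM2-/- hearts were above both PKM2fl/fl hearts, with a log2 fold change of 1.297 (standard error 0.68), and after MI all 3 PKM2-/- hearts were below all 3 PKM2fl/fl hearts, with a log2 fold change of −0.78 (standard error 1.35). The difference between the effects at baseline and after MI was not tested. Among the groups compared, the rRNA-related nuclear loci took 10.5% to 10.8% of reads in PKM2-/- and 0.435% to 0.755% in PKM2fl/fl baseline hearts, and 3.34% to 23.8% and 2.39% to 33.0% after MI.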

How the results depend on the processing

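Of the 56 calls of single genes, none reversed under the other settings. Over 504 fits with another scaling, tool, pseudocount, filter or fit the call was lost in 25, and over 333 fits without 1 library it was lost in 34, for 15 of the calls. Counts of mitochondrial genes called moved by over 1.5 times under few settings. With libraries scaled to total reads, 7 were called at baseline, 6 after sham surgery and 1 after MI between genotypes, and 20 for MI in PKM2-/- hearts and 3 for sham against baseline in PKM2-/- hearts. The shares of all genes called under that scaling are not given here. DESeq2 called 3 at baseline and 1 after MI. A fit of all 16 libraries called 0 at baseline and 0 for sham against baseline in PKM2-/- hearts. The replicate block, used though the numbers pair no animals (correlations of deviations between same-numbered libraries ran from −0.196 to 0.126), called 1 after sham surgery and 3 for sham against baseline in PKM2-/- hearts.

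Leaving out 1 library at a time gave 1 to 4 calls at baseline (4 without the second PKM2fl/fl or the first PKM2-/- heart), 0 to 0 after sham surgery, 0 to 2 after MI (2 without the third PKM2fl/fl heart), 20 to 23 and 25 to 32 for MI against sham in PKM2fl/fl and PKM2-/- hearts, 0 to 0 and 1 to 1 for sham against baseline, and 0 to 1 (1 without the third PKM2fl/fl MI heart) and 0 to 0 for the differences of the genotype effect. In the same way the mRNA share differed by −2.90 to −1.97 points between genotypes and −6.51 to −5.24 after MI, the tRNA share by −0.0972 to −0.0745 and −0.178 to −0.1495, and the rRNA share by 1.96 to 3.93 and −8.99 to −5.98.

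The genotype difference of the mRNA share was −1.12 points over reads outside rRNA (p = 0.284) and −0.34 on the log2 scale (p = 0.11), both by exact permutation, and the MI difference of the rRNA share −8.76 points over reads outside rRNA. Among the values recomputed under every setting, which leave out most uncalled genes, the sign changed in mt-Tp at baseline (−0.15 with total reads), in mt-Ts1 after sham surgery (−0.10 with edgeR, −0.0886 with DESeq2 and −0.56 to 1.57 without 1 library), and in mt-Rnr1 (−0.15 to 0.54) and mt-Rnr2 (−0.37 to 0.13) for MI in PKM2fl/fl hearts without 1 library. The cause was not tested. Depth limits genes with few reads, such as mt-Td and mt-Tk, with at most 94 and 11 reads per library, and mt-Ts1, with as few as 22.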
